A study of Mus musculus with 36 samples.

Results

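The RNA carried on ribosomes of dopamine D1 receptor neurons of the mouse striatum was compared, gene by gene, with the unbound RNA that was left when those ribosomes were pulled down. The comparison holds the 4 libraries labelled as D1 neurons of control mice and the 4 labelled as striatum of control mice, which are the unbound portion of the purification, so 8 of the 36 samples of the series. They were chosen by their labels alone. A total of 10282 genes with a mean of at least 1 RPKM (read count divided by gene length in kilobases and by library size) were tested.

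The purification was translating ribosome affinity purification (TRAP), in which a green fluorescent protein fused to the ribosomal protein L10a is expressed in 1 cell type and an antibody to it collects that cell type's ribosomes with the RNA on them. Per the source labels the control mice carried Drd1-eGFPL10a and Il34-/-, while their genotype label reads control. A second set, labelled IL34-KO, carried Drd1-Cre as well and gave 3 libraries of D1 neurons and 4 of unbound striatum. The labels give no treatment, age or sex for either set. For a view of another cell type, 5 pull-down and 5 unbound libraries of saline-injected mice with the tag in microglia were set beside them; these carried Cx3cr1CreErt2/+(Litt) and Eef1a1LSL.eGFPL10a/+, in which Cre expressed from Cx3cr1 and activated by tamoxifen turns the tag on, together with Camk2a-tTA and TetO-Chrm3 (3 libraries a fraction) or TetO-Chrm4 (2 a fraction). The tag follows Drd1 regulatory sequence, so ribosomes of any Drd1-expressing cell could be collected, and the reads of Drd1 from the transgene and from its own locus cannot be told apart. The labels do not say whether the libraries of a group came from separate animals, so p-values measure the spread between these libraries, which may be technical.

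Spiny projection neurons make up most neurons of the striatum and fall into a direct pathway, marked by the dopamine D1 receptor, substance P and dynorphin, and an indirect pathway, marked by the D2 receptor, an adenosine receptor and enkephalin. Dopamine raises cyclic AMP through D1 receptors and lowers it through D2 receptors. The remaining striatal cells are interneurons, astrocytes, oligodendrocytes and their precursors, microglia and vascular cells.

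The control pull-down libraries held 24.5 to 38.3 M reads in genes and the unbound libraries 11.3 to 22.9 M. The listed genes held 97.9% to 98.8% of the reads behind the RPKM scale in the pull-downs but 50.7% to 58.8% in unbound RNA, and genes of the mitochondrial genome took 0.216% to 0.674% of gene reads in the pull-downs against 6.69% to 7.47% in unbound RNA. As deposited, the median gene therefore stood 0.81 higher on the log2 scale in the pull-down. Mitochondrial genes were left out and each library was rescaled to remove this shift, after which the median difference of all genes was 0.02. All levels below are rescaled RPKM, and all differences are log2 of (rescaled RPKM + 1), pull-down minus unbound, with the standard error, a scale that understates the change of low genes. The labelled tissue was checked against markers: astrocyte, oligodendrocyte, microglia and spiny neuron genes were all present in unbound RNA. Endothelial RNA was scarce, with 9 of 10 markers under 1 RPKM in all 8 libraries. The 10 summed to 1.398 to 1.59 RPKM in the pull-downs and 2.21 to 3.28 in unbound RNA. Esam, named because it was the exception, had 0.876 to 1.13 RPKM in the pull-downs and 0.560 to 0.874 in unbound RNA.

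What distinguished the D1 pull-down from the rest of the striatal RNA? Markers of direct-pathway neurons were higher in the pull-down, and those of indirect-pathway neurons, interneurons and every glial type were lower. Transcripts that all spiny projection neurons share were mostly and moderately higher, in 22 of 24 cases, of which 12 passed the threshold. Of 10282 genes tested, 2474 were higher (24.1%) and 2657 lower (25.8%) at a limma adjusted p under 0.05. The differences were unequal in size: on this scale 28 genes were at least 2-fold higher, while 700 fell to at most 0.5 and 129 to at most 0.25 of the unbound level. The median log2 difference was 0.41 among the genes that rose and -0.56 among those that fell. Quantile scaling, which left the median of all genes at 0.10, gave 3476 higher and 2249 lower genes, 60.7% of the calls higher against 48.2%. Without rescaling 8722 genes were higher and 691 lower. The sign of the D1, D2, interneuron, glial, spiny neuron and respiratory chain list medians given below was the same under every scaling tried, also without rescaling. The medians of the cortical, translation factor, glutamate receptor and neuropeptide lists changed sign with another rescaling and when single libraries were left out. Without rescaling the medians of the matrix, cortical, ribosomal protein, histone, GABA receptor, potassium channel and neuron to microglia lists, all below 0 after it, stood at 0.47 to 0.88. Unbound RNA is what the purification left, so these differences compare portions of RNA and measure neither cell numbers nor RNA per cell.

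All 5 of the D1 markers rose, against 24.1% of all genes. Tac1, which encodes the precursor of substance P (chromosome 6, 7554879 to 7565834 of GRCm38, protein-coding), had 591, 522, 564 and 623 RPKM in the pull-downs and 152, 173, 183 and 226 RPKM in unbound RNA. Every pull-down lay above every unbound library by a wide margin, and the log2 difference was 1.65 ± 0.12, or 3.15-fold (adjusted p = 8.17e-07). Drd1a, the D1 receptor itself (chromosome 13, 54051183 to 54055705), had 120.0, 103, 93.5 and 119 RPKM in the pull-downs, against 40.01, 43.4, 44.1 and 56.3 RPKM in unbound RNA. Its groups did not overlap either, with a log2 difference of 1.23 ± 0.12.

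Slc35d3, a member of the nucleotide sugar transporter family (chromosome 10, 19847916 to 19851459), had 23.8, 21.2, 18.1 and 25.2 RPKM against 6.29, 7.38, 5.85 and 10.97 RPKM in unbound RNA (1.45 ± 0.17). Chrm4, the muscarinic M4 receptor that opposes D1 signalling (chromosome 2, 91927249 to 91928688), had 8.85, 10.9, 11.4 and 14.1 RPKM against 4.08, 4.41, 4.698 and 6.53 RPKM in unbound RNA (1.06 ± 0.15). Isl1, a homeodomain transcription factor of developing direct-pathway neurons, had 10.9, 12.96, 11.2 and 14.1 RPKM against 6.02, 6.66, 5.35 and 7.45 RPKM in unbound RNA (0.85 ± 0.11). In none of the 5 did the groups overlap, a pattern that 20.7% of all genes showed in that direction. Ordered by log2 difference over all genes, Tac1 ranked 3, Slc35d3 ranked 6, Drd1a ranked 12, Chrm4 ranked 22 and Isl1 ranked 65. The 5 genes summed to 670.2 to 796 RPKM in the pull-downs and 208 to 308 RPKM in unbound RNA, of which Tac1 made up most.

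**Figure D1:**
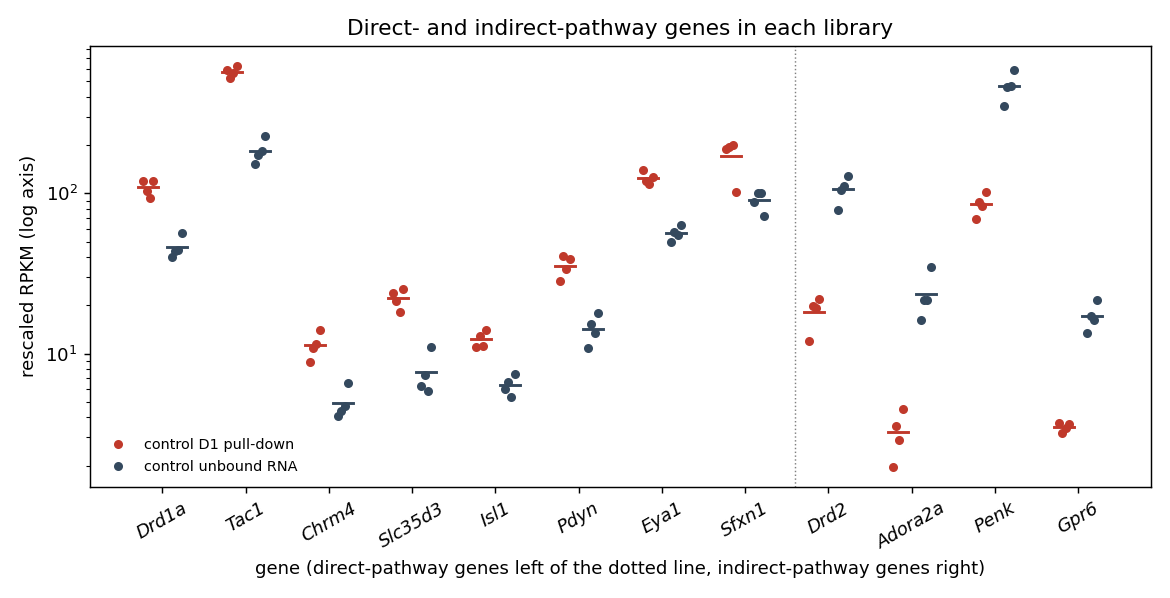
Rescaled RPKM (log axis) of 8 direct-pathway and 4 indirect-pathway genes in each control library, with pull-downs in red left of unbound RNA in dark blue, and bars at the means (n = 4 each). Every pull-down lies above every unbound library for the direct-pathway genes and below for Drd2, Adora2a, Penk and Gpr6. The pull-down library that is low for Sfxn1 stood at 101.3 RPKM, just above the highest unbound library at 100.5.

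Of 6 further direct-pathway genes, 5 rose, against 24.1% of all genes. Pdyn, the precursor of the opioid dynorphin, had 28.4, 40.4, 33.5 and 39.03 RPKM in the pull-downs and 10.8, 15.3, 13.4 and 17.8 RPKM in unbound RNA, without overlap (1.25 ± 0.15). Accn4, of the acid-sensing ion channel family, rose by 1.36 ± 0.17, and Ebf1, a transcription factor needed for direct-pathway neurons to mature, by 0.82 ± 0.08. Zfp521, a zinc finger factor, was not told apart, at 4.43 ± 0.689 RPKM in the pull-down and 4.69 ± 0.702 RPKM in unbound RNA (SD, n = 4 each; -0.07 ± 0.12, adjusted p = 0.664).

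Eya1, a transcriptional coactivator with phosphatase activity (chromosome 1, 14168954 to 14310235), had 140.2, 119, 115 and 127 RPKM in the pull-downs and 49.6, 56.9, 55.2 and 63.6 RPKM in unbound RNA (1.14 ± 0.09). In deposited RPKM of another table, normalized separately, unbound striatal RNA of the mice with a tag in microglia held only 3.12 to 5.57 RPKM of Eya1 over 5 libraries. Sfxn1, a mitochondrial serine transporter that lies 16164 bases from Drd1 on chromosome 13 (54071869 to 54108342), had 188, 195, 201 and 101 RPKM in the pull-downs and 88.2, 99.97, 101 and 72.2 RPKM in unbound RNA (0.88 ± 0.20). The fourth pull-down library was low for Sfxn1 but not for Drd1a or Eya1. In a fit that takes its spread from all 15 libraries of the table, neither Eya1 nor Sfxn1 passed (adjusted p = 0.0922 and 0.202).

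All 5 indirect-pathway markers that could be tested fell, against 25.8% of all genes. Drd2, the D2 receptor (chromosome 9, 49340627 to 49408177), had 11.9, 19.7, 19.2 and 21.8 RPKM in the pull-downs and 78.5, 105, 111 and 129 RPKM in unbound RNA, so that its highest pull-down lay far below its lowest unbound library (-2.49 ± 0.19, adjusted p = 1.42e-06). Adora2a, the striatal adenosine receptor coupled to cyclic AMP (chromosome 10, 75316877 to 75334784), had 1.97, 3.53, 2.899 and 4.501 RPKM against 16.1, 21.5, 21.4 and 34.6 RPKM in unbound RNA (-2.52 ± 0.22). Penk, the enkephalin precursor, had 69.6, 87.97, 82.7 and 102 RPKM against 349, 461, 469 and 589 RPKM (-2.42 ± 0.15). None of the 5 overlapped between fractions, as in 23.4% of all genes in that direction.

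Gpr6, an orphan receptor of indirect-pathway neurons, fell by 1.99 ± 0.12 and Sp9, a transcription factor required for them, fell by 1.08 ± 0.11. The list's median was -2.42, beside 0.02 for all genes. Depletion was incomplete: the 7 measured D2 markers still summed to 88.5 to 133 RPKM in the pull-downs, against 461 to 778 RPKM in unbound RNA. Plxdc1 and Upb1, the remaining 2, had a mean under 1 RPKM and were not tested. 

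Promoter sequences are shown for 2 genes that rose, Slc35d3 and Chrm4, and 2 that fell, Drd2 and Gpr6, because cyclic AMP, on which the 2 dopamine receptors act in opposite directions, works on promoters through the CRE motif. The windows of these 4 lie outside the annotated gene bodies, and the 4 were chosen with their values known. Each is the 250 bases before the annotated start, 5′ to 3′ on the gene's own strand, from RefSeq on GRCm38.p6. Capitals mark the core of the CRE, TGACG or its reverse complement CGTCA.
Slc35d3 (chr10:19851460-19851709, minus strand): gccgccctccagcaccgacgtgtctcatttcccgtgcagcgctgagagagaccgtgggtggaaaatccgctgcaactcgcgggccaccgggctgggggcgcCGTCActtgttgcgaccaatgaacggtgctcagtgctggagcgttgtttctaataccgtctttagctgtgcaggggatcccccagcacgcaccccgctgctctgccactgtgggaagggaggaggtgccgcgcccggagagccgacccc
Chrm4 (chr2:91921939-91922188, plus strand): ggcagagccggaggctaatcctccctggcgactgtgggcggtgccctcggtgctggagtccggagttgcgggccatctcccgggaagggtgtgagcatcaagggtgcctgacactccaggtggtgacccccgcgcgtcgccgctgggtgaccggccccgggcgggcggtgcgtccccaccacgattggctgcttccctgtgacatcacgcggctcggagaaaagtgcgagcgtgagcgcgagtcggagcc
Drd2 (chr9:49340153-49340402, plus strand): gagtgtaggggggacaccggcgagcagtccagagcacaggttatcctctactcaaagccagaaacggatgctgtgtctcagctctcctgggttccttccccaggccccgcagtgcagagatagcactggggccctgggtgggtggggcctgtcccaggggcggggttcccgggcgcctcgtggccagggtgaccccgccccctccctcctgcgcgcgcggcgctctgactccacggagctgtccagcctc
Gpr6 (chr10:41072291-41072540, minus strand): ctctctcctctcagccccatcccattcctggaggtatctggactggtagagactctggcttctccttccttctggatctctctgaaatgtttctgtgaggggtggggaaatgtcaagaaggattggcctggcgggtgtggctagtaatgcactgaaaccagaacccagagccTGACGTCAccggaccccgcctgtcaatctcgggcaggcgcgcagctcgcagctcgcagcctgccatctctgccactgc
The core was found once in Slc35d3, at position -149 from the start on the opposite strand, and not in Chrm4 or Drd2. Gpr6 held the full palindrome TGACGTCA, which counts as 2 overlapping cores. Of 32851 promoters of this length, 17.8% held a core on either strand and 1.55% the palindrome. Among other genes that rose, the windows of Tac1 and Isl1, not shown, held 2 cores each, and both windows of Drd1 and of Pdyn held none. Of the other genes that fell, Penk and Adora2a had no promoter entry and Sp9 was not looked at. The indirect-pathway side therefore rests on Drd2 and Gpr6 alone.

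Of 24 genes that both kinds of spiny projection neuron use, 12 rose and 0 fell, against 24.1% and 25.8% of all genes, 22 were higher, and the median was 0.33. Leaving out 1 library at a time gave 9 to 17 that rose and 0 to 1 that fell. Rarb, a retinoic acid receptor, had 39.95, 50.2, 42.9 and 49.5 RPKM in the pull-downs and 22.5, 29.6, 27.2 and 33.8 RPKM in unbound RNA (0.68 ± 0.12). Rxrg, of the retinoid X receptors that pair with such receptors on DNA, rose by 0.53 ± 0.10 and Ptpn5, the striatum-enriched phosphatase STEP, by 0.68 ± 0.11. Ppp1r1b, the phosphatase inhibitor DARPP-32, had 323, 467, 449 and 458 RPKM in the pull-downs and 227, 271, 300.2 and 351 RPKM in unbound RNA, where the lowest pull-down overlapped the highest unbound library (0.56 ± 0.15, adjusted p = 0.00931).

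Of 27 genes for making, breaking and sensing cyclic nucleotides 11 rose and 4 fell, against 24.1% and 25.8% of all genes, with a median of 0.17. The phosphodiesterases Pde1b (0.66 ± 0.13), Pde8b (0.53 ± 0.09) and Pde2a (0.50 ± 0.12) rose, while the adenylyl cyclase Adcy2 fell (-0.92 ± 0.16), at 3.81, 1.88, 2.34 and 2.099 RPKM in the pull-downs and 7.104, 5.59, 4.93 and 4.78 RPKM in unbound RNA. The groups did not overlap for these 4.

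The striatum is also divided into striosomes, patches rich in opioid receptor, and the surrounding matrix. Neither compartment's markers moved as a block. Of 7 striosome markers 1 rose and 2 fell, against 24.1% and 25.8% of all genes (median 0.20). Foxp2, a forkhead transcription factor, rose to 21.8, 22.7, 21.4 and 21.7 RPKM, against 13.1, 13.7, 14.4 and 15.4 RPKM in unbound RNA (0.60 ± 0.07). Oprm1, the µ-opioid receptor, had 1.104, 1.61, 1.39 and 1.53 RPKM against 1.65, 1.96, 2.11 and 1.98 RPKM in unbound RNA (-0.28 ± 0.09, adjusted p = 0.0235). Bach2 fell by 0.37 ± 0.10, and Sema5b, Kremen1, Lypd1 and Khdrbs3 did not pass, with log2 differences of 0.20, 0.20, 0.35 and 0.41.

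Of 5 matrix markers, 2 rose and 1 fell, against 24.1% and 25.8% of all genes (median -0.06). Calb1, the calcium buffer calbindin, rose by 0.26 ± 0.09 (adjusted p = 0.0357) and Gda, guanine deaminase, by 0.24 ± 0.07 (adjusted p = 0.0165). Sgk1, a stress-induced kinase, fell by 0.71 ± 0.25 with overlapping groups (adjusted p = 0.0354). Epha4 (-0.06 ± 0.08) and Id4 (-0.30 ± 0.22) did not pass. These calls rested on single libraries. That of Gda was lost without unbound library 2 (adjusted p = 0.0597), and that of Oprm1 without pull-down library 3 or unbound library 2 or 3 (0.0540 to 0.0670). That of Sgk1 was lost without any library but pull-down 1 and unbound 4 (0.0601 to 0.101), and that of Calb1 without any but unbound 4 (0.0518 to 0.101).

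Of 21 transcription factors of striatal development, 8 rose and 4 fell, against 24.1% and 25.8% of all genes (median 0.24). Besides Isl1, Ebf1 and Foxp2 the retinoid receptors rose, and Dlx1, a homeobox factor of developing forebrain GABA neurons, had 1.16, 1.08, 0.909 and 1.09 RPKM in the pull-downs and 4.66, 3.67, 4.02 and 5.04 RPKM in unbound RNA (-1.37 ± 0.09).

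All 10 interneuron markers tested fell, against 25.8% of all genes, with a median of -1.64. Npy, the neuropeptide of a somatostatin interneuron class, had 11.8, 11.2, 9.32 and 8.42 RPKM in the pull-downs and 43.02, 41.7, 42.8 and 49.8 RPKM in unbound RNA (-2.03 ± 0.11). Sst, somatostatin, had 77.2, 73.04, 59.7 and 51.2 RPKM against 253, 243, 213 and 267 RPKM (-1.90 ± 0.13). The choline transporter Slc5a7 of cholinergic interneurons fell by 1.95 ± 0.11, the receptor kinase Kit fell by 1.41 ± 0.08 and Lhx6, a factor of interneurons born in the medial ganglionic eminence, fell by 1.83 ± 0.07. The interneuron list summed to 66.8 to 101 RPKM in the pull-downs and 301 to 356 RPKM in unbound RNA, so its RNA was reduced and not gone. A further 5 members of the table were under the filter.

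Cortical glutamatergic markers gave few calls, with 1 of 10 rising and 1 falling, against 24.1% and 25.8% of all genes. Of the 10, 2 were higher, with a median of -0.12 that quantile scaling turned to 0.03. That median was not stable to single libraries, at -0.60 without pull-down library 1 and 0.37 without unbound library 1. Rorb, a nuclear receptor of cortical layer 4, fell by 2.23 ± 0.15, and 6330527O06Rik, an older name of Lamp5, rose by 0.83 ± 0.13. Fezf2, a factor of deep cortical layers, varied more between libraries than between fractions, at 3.95, 0.793, 1.67 and 0.942 RPKM in the pull-downs and 5.95, 1.69, 3.37 and 1.705 RPKM in unbound RNA. Slc17a6, a vesicular glutamate transporter, did too, at 1.197, 2.34, 0.177 and 0.123 RPKM against 2.497, 5.86, 0.518 and 0.423 RPKM, and neither passed in this unpaired fit (adjusted p = 0.21 and 0.336). For both genes the 4 libraries, numbered by the order of their columns, ranked alike in the 2 fractions; the columns carry no replicate number, so whether columns in the same place share an animal cannot be told. The list summed to 34.99 to 102 RPKM in the pull-downs and 39.4 to 123 RPKM in unbound RNA.

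Genes expressed by neurons at large rose in 7 of 14 cases and fell in 2, against 24.1% and 25.8% of all genes (median 0.23). Nefl, the light neurofilament subunit, had 204, 160.5, 162 and 152 RPKM in the pull-downs and 98.1, 88.7, 80.2 and 67.1 RPKM in unbound RNA (1.02 ± 0.13). The ubiquitin hydrolase Uchl1 (0.76 ± 0.08) and neuron-specific enolase Eno2 (0.53 ± 0.07) rose. Syt1, the calcium sensor of vesicle fusion, named because it was an exception, fell by 0.31 ± 0.09. Mtap2, whose mRNA is known for its place in dendrites, fell too, at 35.1, 34.2, 32.6 and 30.4 RPKM against 97.5, 91.3, 87.9 and 81.5 RPKM in unbound RNA (-1.41 ± 0.08). Of 12 other dendritically localized mRNAs 8 rose and 0 fell, against the same shares (median 0.41). Among these, Psd rose by 0.81 ± 0.15, the scaffold Shank3 by 0.64 ± 0.12, Agap2 by 0.61 ± 0.12 and Lrrc7 by 0.55 ± 0.10.

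RNA of every glial type was lower. All 14 oligodendrocyte markers, 5 precursor markers and 14 microglia markers tested fell, as did 16 of 17 astrocyte markers, against 25.8% of all genes. The list medians were -2.53, -1.51, -1.82 and -2.03. Ermn, an actin-binding protein of myelinating oligodendrocytes (chromosome 2, 58045113 to 58052864), had 9.12, 8.56, 7.79 and 6.24 RPKM in the pull-downs and 105, 112, 113 and 61.5 RPKM in unbound RNA (-3.44 ± 0.19, adjusted p = 1.44e-07). Slc1a2, the astrocyte glutamate transporter, had 51.1, 45.3, 40.4 and 47.5 RPKM against 316, 327, 300.4 and 346 RPKM (-2.78 ± 0.08). C1qb, a complement subunit made by microglia, had 1.14, 1.83, 1.14 and 1.68 RPKM against 13.4, 17.03, 12.4 and 17.5 RPKM (-2.72 ± 0.13). In all 3 the fractions were far apart, and Slc4a4, a bicarbonate transporter of astrocytes and neurons, was the astrocyte marker that did not pass (-0.24 ± 0.10, adjusted p = 0.0657). It is named because it was the exception. A further 3 precursor and 3 microglia markers were under the filter.

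The 15 largest falls were led by glial genes too. Besides Ermn they included Mal (-3.08 ± 0.14), Mobp (-2.82 ± 0.18) and Tspan2 (-2.85 ± 0.12) of myelin, the secreted Apod (-3.44 ± 0.18), Ptgds (-3.04 ± 0.18), Sparcl1 (-2.96 ± 0.10) and Sparc (-2.85 ± 0.15), the glial connexin Gjc3 (-2.89 ± 0.10), Csrp1 (-3.003 ± 0.14) and Fam107a (-2.85 ± 0.11). Of the 129 genes at or under 0.25 of the unbound level, 12 were oligodendrocyte, 10 astrocyte, 6 microglia and 3 D2 markers. Glial RNA did not vanish from the pull-down: the oligodendrocyte list summed to 86.9 to 118 RPKM, against 655 to 984 RPKM in unbound RNA, and the microglia list to 12.1 to 16.6 RPKM, against 94.1 to 120.1 RPKM.

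The largest fall of all, Gm10925, had 14.4, 6.75, 5.25 and 13.8 RPKM in the pull-downs and 297, 339, 332 and 316 RPKM in unbound RNA (-4.97 ± 0.26). RefSeq lists it as a pseudogene with mt-Atp6 among its other names, and reads of a near-identical mitochondrial gene could be split between them, so its level is uncertain. Snhg11, a long RNA that hosts small nucleolar RNAs and was the only one of 16 listed noncoding transcripts in the table, fell to 3.46, 2.34, 2.29 and 2.89 RPKM, against 29.6, 24.4, 22.7 and 24.99 RPKM in unbound RNA (-2.82 ± 0.11).

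**Figure D2:**
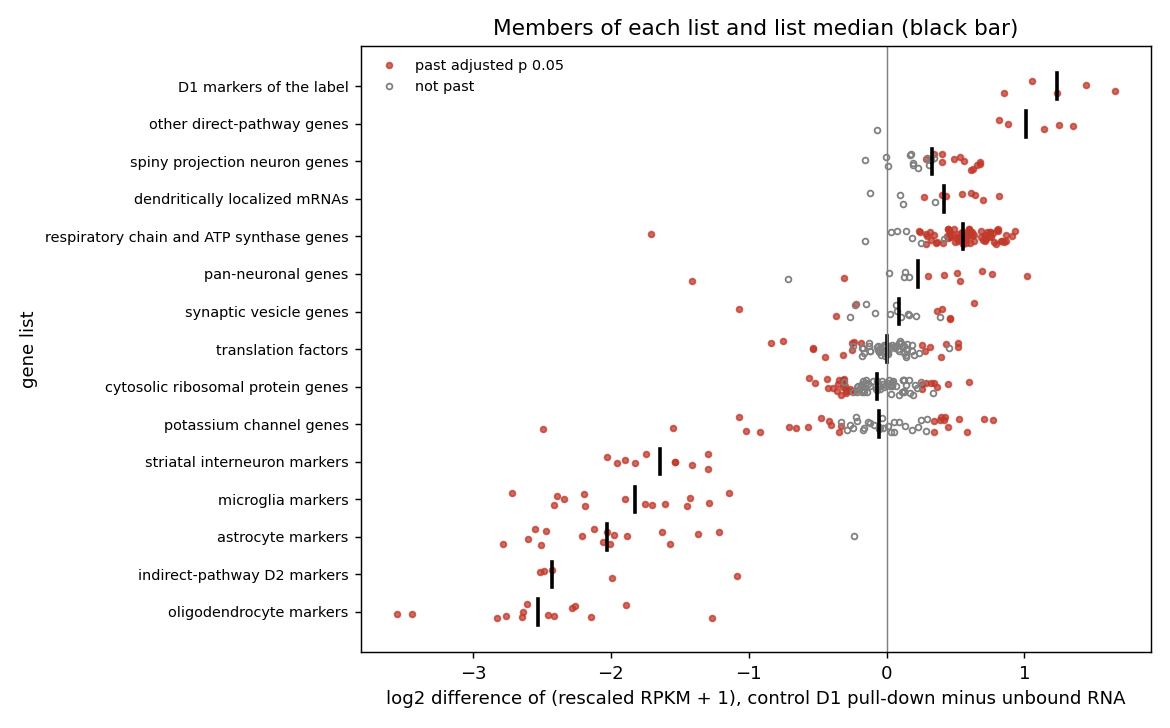
Log2 difference of (rescaled RPKM + 1), control D1 pull-down minus unbound RNA, for each tested member of 15 gene lists, filled where limma's adjusted p was under 0.05. Black bars mark list medians, from 1.23 for the D1 markers at the top to -2.53 for oligodendrocyte markers at the bottom.

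Not all large rises were genes of the direct pathway: 7 of the 28 genes at least 2-fold higher were on the D1 or direct-pathway lists. The largest was Yeats2, which encodes a reader of acetylated histones in a histone acetyltransferase complex (chromosome 16, 20141063 to 20232573). It had 13.5, 12.3, 14.3 and 11.3 RPKM in the pull-downs and 1.43, 1.28, 1.31 and 0.897 RPKM in unbound RNA (2.64 ± 0.10), a 10.5-fold ratio of the mean RPKM. Gtf2i, a general transcription factor with close copies in its own family (chromosome 5, 134237834 to 134314760), had 50.8, 49.9, 57.3 and 52.7 RPKM against 15.4, 15.4, 15.1 and 14.3 RPKM (1.74 ± 0.07), and its reads could be split with such copies. Arid1b, a subunit of a SWI/SNF chromatin remodeller, had 16.7, 16.1, 18.5 and 15.5 RPKM against 4.87, 4.91, 5.35 and 4.64 RPKM (1.57 ± 0.08). The ranges of the fractions were far apart for all 3.

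Rai1, a chromatin regulator, rose by 1.45 ± 0.16, at 11.5, 18.5, 18.2 and 21.1 RPKM in the pull-downs and 4.91, 5.52, 5.59 and 6.38 RPKM in unbound RNA. Pcp4, a small calmodulin-binding protein, had 1949, 1719, 2234 and 1518 RPKM against 738, 747, 796 and 644 RPKM (1.33 ± 0.12). Bahcc1, taken up further on, did not reach the mean of 5 RPKM set for naming the largest rises. The membrane protein Tmem158 (1.43 ± 0.13), Rprml (1.23 ± 0.10), the zinc finger factor Hivep2 (1.15 ± 0.08), Atp6ap1l (1.15 ± 0.12) and the calcium-binding tescalcin Tesc (1.14 ± 0.11) complete the 15 largest rises.

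The saline-injected mice with the tag in microglia give the same kind of value from another cell type, in tables normalized separately. The 5 D1 markers, with a median of 1.23 in the D1 pull-down, had a median of -0.83 in the microglial pull-down. Microglia markers stood at -1.82 in the D1 and at 6.79 in the microglial pull-down, whereas astrocyte markers were low in both (-2.03 and -1.17). The median of all 10132 genes with both values was -0.11 in the microglial pull-down, so values below 0 were common there. Of the 28 genes at least 2-fold higher in the D1 pull-down, 16 were below 0 in the microglial one and 12 above, 5 of them at least 2-fold. Yeats2 was one, with 2.64 in the D1 pull-down and 5.42 in the microglial pull-down. The others were Bahcc1, a chromatin reader (1.26 and 5.35), Rai1 (1.45 and 1.58), Nefl (1.02 and 1.25) and Hebp1, a heme-binding protein (1.04 and 1.08). Bahcc1 and Hebp1 were named after their values were seen, and the difference between the pull-downs was not tested.

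**Figure D3:**
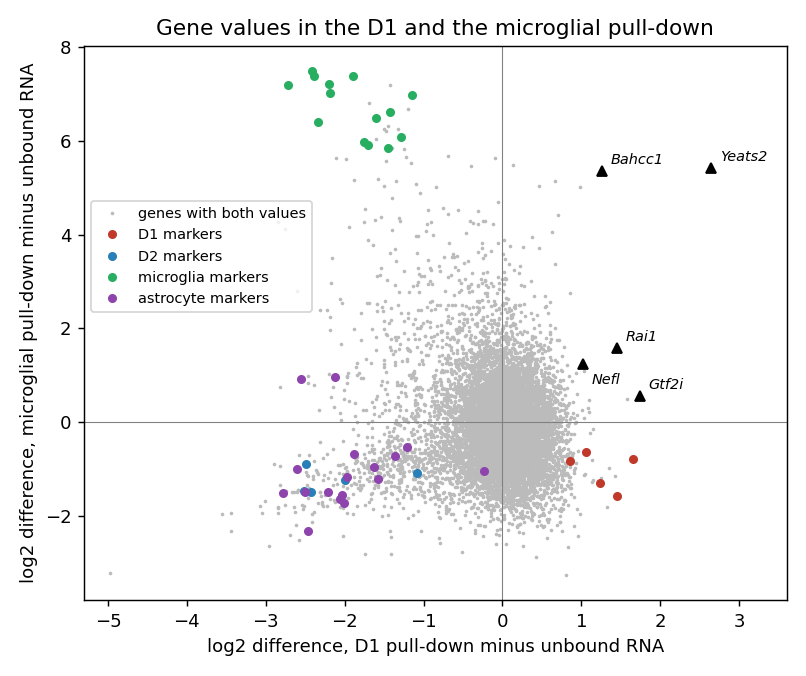
Log2 difference of pull-down minus unbound RNA for each gene in the D1 line (horizontal) and in the microglial lines (vertical), for 10132 genes with both values. D1 markers lie right of 0 and below it, microglia markers left of 0 and above it, and Yeats2 and Bahcc1 lie high on both axes, with 2.64 and 1.26 in the D1 and 5.42 and 5.35 in the microglial pull-down.

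Genes of energy metabolism separated by the genome that encodes them. Of 80 nuclear genes listed by symbol for the respiratory chain and ATP synthase, 72 rose and 1 fell, with a median of 0.55, against 24.1% of all genes higher. All complexes took part: 35 of 36 subunits of complex I rose (median 0.60), 4 of 4 of complex II (0.53), 8 of 9 of complex III (0.63), 11 of 14 genes with a cytochrome c oxidase symbol (0.52) and 14 of 17 with an ATP synthase symbol (0.47). The symbols also took in Cox4nb, which RefSeq names Emc8 after a complex of the endoplasmic reticulum and which is no oxidase gene (-0.16 ± 0.06, adjusted p = 0.0634), and Atp5s (0.03 ± 0.13, adjusted p = 0.844) and Atp5sl (0.34 ± 0.08), which RefSeq names Dmac2l and Dmac2. These 3 are named because their RefSeq names depart from the list. Cox5b, a cytochrome c oxidase subunit, had 183, 200.5, 189 and 182 RPKM in the pull-downs and 97.6, 111, 104 and 104 RPKM in unbound RNA (0.85 ± 0.07). Ndufa1, of complex I, had 161, 123, 135 and 139 RPKM against 70.1, 71.5, 74.9 and 73.2 RPKM (0.93 ± 0.09), and Ndufs4 (0.75 ± 0.07) and Atp5k (0.83 ± 0.07) were alike.

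Cox6a2, a subunit known from striated muscle and from interneurons, was the single fall, to 0.808, 2.06, 1.03 and 0.402 RPKM against 6.57, 6.54, 4.27 and 4.94 RPKM in unbound RNA (-1.71 ± 0.21). It was named because it was the exception. In the microglial pull-down the list's median was -0.25. Transcripts of the mitochondrial genome, which are translated inside the organelle, went the other way when they were kept in the fit. All 12 that could be tested fell, by a log2 difference between -4.93 and -2.55, against 2669 of 10294 genes lower in that fit. The core subunit of cytochrome c oxidase, mt-Co1, averaged 384 ± 127 RPKM in the pull-down and 11074 ± 542 RPKM in unbound RNA (SD, n = 4 each). The tag is on a protein of cytosolic ribosomes, so the method alone could leave these transcripts low, which was not tested.

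Of 81 cytosolic ribosomal protein genes 8 rose, against 24.1% of all genes, and 19 fell, near the 25.8% of all genes, with a median of -0.07. Rpl10 had 46.99, 57.6, 45.4 and 46.7 RPKM in the pull-downs and 63.7, 77.5, 68.4 and 73.4 RPKM in unbound RNA (-0.52 ± 0.09), and Rps24 fell by 0.43 ± 0.08. Ribosomal protein genes have many near-identical copies, so single values are uncertain. Quantile scaling gave 4 higher and 31 lower, without a filter on low values 20 were higher and 8 lower, and without rescaling all 81 were higher. In the libraries labelled IL34-KO, described further on, 13 rose and 5 fell. Of 62 translation factors 7 rose and 10 fell, both under the shares of all genes, with a median of 0.00 that was below 0 when libraries were scaled to the total of genes. The start codon factor Eif1 rose by 0.51 ± 0.07 and Eif4ebp2, a repressor of cap-dependent initiation, fell by 0.84 ± 0.10.

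Gene length moved with the difference across all genes. The lengths were worked out from the recovered reads and the RPKM and were not taken from an annotation. Genes were put in 5 bins of nearly equal size by length. In the bin of the shortest, with counted lengths of 21 to 2125 bases, the median difference was 0.20. There 843 of 2061 rose, against 24.1% of all genes. In the bin of the longest, from 6496 to 31152 bases, the median was -0.12, and 244 of 2057 rose, against the same share. Spearman's rho of length and difference was -0.27 across 10282 genes, which are not independent replicates and share the same libraries. The respiratory chain list has a median length of 1304.5 bases and the ribosomal protein list one of 1444 bases, both within the range of the shortest bin, and their median differences were 0.55 and -0.07. The part of length in each list's value was not tested.

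**Figure D4:**
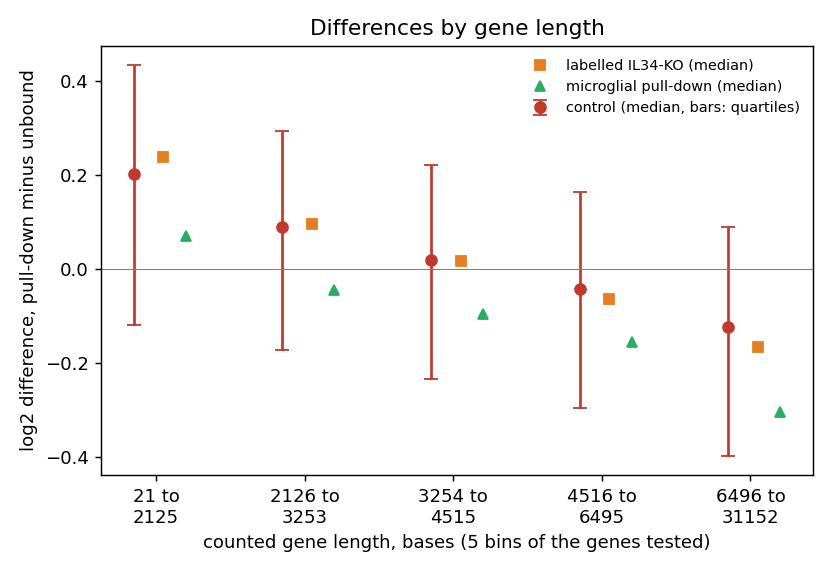
Median log2 difference of pull-down minus unbound RNA in 5 bins of the genes tested by counted length in bases, for the control D1 line with quartiles as bars, the D1 line labelled IL34-KO and the microglial lines. In the control D1 line the median declines from 0.20 in the shortest bin to -0.12 in the longest, and in the microglial lines from 0.07 to -0.30.

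Of 51 potassium channel genes 11 rose and 13 fell, shares near the 24.1% and 25.8% of all genes (median -0.05). The astrocyte channel Kcnj10 had 3.76, 4.65, 4.36 and 3.53 RPKM in the pull-downs and 26.02, 29.2, 30.3 and 24.8 RPKM in unbound RNA (-2.49 ± 0.10), and Kcnj16, its partner subunit, fell by 1.55 ± 0.16. Of 28 sodium and calcium channel genes 9 rose and 2 fell, against 24.1% and 25.8% of all genes (median 0.09), among them the calcium channel subunits Cacnb1 (0.56 ± 0.09) and Cacng3 (0.50 ± 0.08) that rose and Cacng7 (-1.04 ± 0.10) that fell.

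Of 14 GABA receptor genes 4 rose and 4 fell, again near the shares of all genes (median -0.10). Gabrg1 had 1.09, 1.34, 0.923 and 0.954 RPKM in the pull-downs and 3.65, 5.62, 3.36 and 4.14 RPKM in unbound RNA (-1.31 ± 0.13) and Gabra3 fell by 1.10 ± 0.21, while Gabra5, found in extrasynaptic receptors, rose by 0.35 ± 0.09. Of 17 glutamate receptor genes 2 rose and 3 fell, against 24.1% and 25.8% of all genes, with a median of 0.02 that was below 0 when libraries were scaled to the total of genes. The kainate receptor subunit Grik3 had 3.55, 2.18, 2.26 and 1.97 RPKM against 8.02, 7.095, 7.93 and 8.51 RPKM (-1.37 ± 0.13), and the metabotropic receptor Grm3 fell by 0.72 ± 0.11.

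Synaptic vesicle genes rose in 5 of 20 cases, near the 24.1% of all genes, and fell in 3, against 25.8% (median 0.09). The priming factor Unc13a (0.64 ± 0.14) and the vesicle GTPase Rab3a (0.40 ± 0.07) rose, and Vamp1, the vesicle fusion protein known from fast-firing neurons, had 2.41, 2.604, 1.69 and 1.56 RPKM in the pull-downs and 7.58, 7.25, 4.98 and 2.87 RPKM in unbound RNA (-1.07 ± 0.23). Replication-dependent histone genes, of which 17 of 66 passed the filter, rose in 4 cases, near the share of all genes, and fell in 6; their copies are near-identical, so single values are uncertain. Hist2h2be had 1.32, 1.76, 1.52 and 1.799 RPKM against 6.74, 7.18, 6.701 and 7.500 RPKM in unbound RNA (-1.63 ± 0.08).

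Of 15 neuropeptide and opioid genes, Tac1 and Pdyn rose and 6 fell, against 24.1% and 25.8% of all genes, with a median of 0.02 that scaling to the total of genes turned to -0.04. The δ-opioid receptor Oprd1 had 1.29, 0.823, 1.02 and 0.935 RPKM in the pull-downs and 5.66, 5.07, 5.37 and 5.79 RPKM in unbound RNA (-1.69 ± 0.09), without overlap. Of 15 activity-induced genes 2 rose and 0 fell, both under the shares of all genes (median 0.17). Egr4, an early gene induced by neuronal firing, had 14.8, 16.02, 9.66 and 12.9 RPKM in the pull-downs and 10.1, 8.26, 5.73 and 9.72 RPKM in unbound RNA (0.61 ± 0.18, adjusted p = 0.0149), and the lowest pull-down overlapped the highest unbound library. Junb rose by 0.58 ± 0.22 with overlapping groups, and its call was lost without any library but pull-down 3 and unbound 4 (adjusted p of 0.0629 to 0.127).

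Signals by which neurons address microglia were examined because the other set of mice is labelled for Il34. Il34, a ligand of the microglial receptor Csf1r (chromosome 8, 110741829 to 110805924), had 4.85, 6.95, 6.51 and 7.44 RPKM in the pull-downs and 3.500, 3.75, 3.699 and 5.08 RPKM in unbound RNA, so that the highest unbound library overlapped the lowest pull-down (0.57 ± 0.13, adjusted p = 0.00419). Csf1, the other ligand, was under the filter, at 0.236 to 0.334 RPKM in the pull-downs and 1.61 to 2.27 RPKM in unbound RNA. Of 10 such genes 1 rose and 3 fell, against 24.1% and 25.8% of all genes. Cd24a, a surface glycoprotein, had 2.997, 2.52, 2.25 and 2.89 RPKM against 14.7, 16.6, 16.7 and 19.01 RPKM (-2.28 ± 0.10), Nt5e, which makes adenosine from AMP, fell by 1.39 ± 0.13 and the ligand Tgfb2 fell by 0.38 ± 0.09.

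Did the same contrast hold in other libraries? The 3 pull-down and 4 unbound libraries labelled IL34-KO share no sample with the controls. The level of Il34 does not settle that label. Il34 had 7.31, 6.57 and 6.64 RPKM in the pull-downs and 3.83, 3.37, 2.91 and 3.42 RPKM in the unbound libraries labelled IL34-KO. The pull-down values lay within the range of the control pull-downs. Most of the unbound values lay below the control unbound libraries, which had 3.50 to 5.08 RPKM. The sets were rescaled separately, so their levels can be compared only roughly. The labels do not say which part of Il34 was deleted, and reads outside a deleted part would check nothing, so these are called the libraries labelled IL34-KO. They gave 2707 higher (26.4%) and 2754 lower genes (26.9%) of 10246 tested.

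Of 2468 genes higher in control and tested in both, 2100 were higher in the libraries labelled IL34-KO as well (85.1% of the control list and 77.6% of the other list). Of 2619 that were lower in control, 2307 were lower there (88.1% and 84.9%), and 0 were called in opposite directions. The test of the difference itself, the interaction of fraction and genotype over 15 libraries in limma, called 0 of 10254 genes (0.0%), with 117 at an unadjusted p under 0.05. These are 1.14% of genes, a smaller share than the 0.05 that a test gives where nothing differs. The test may therefore miss differences, and 0 calls do not show that the sets are alike. Limma voom on reads recovered from the RPKM also called 0, with 90 at an unadjusted p under 0.05. The smallest adjusted p over all alternatives was 0.211.

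**Figure D5:**
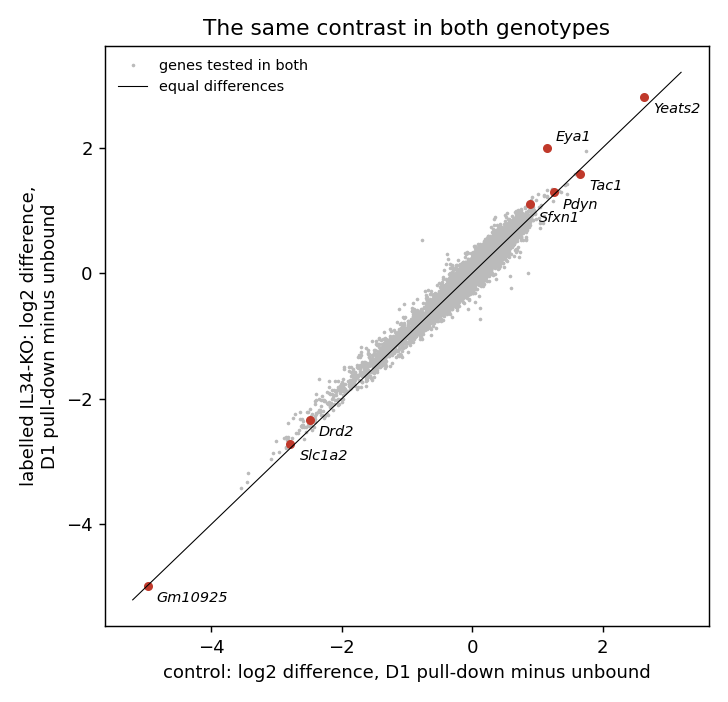
Log2 difference of D1 pull-down minus unbound RNA for 10171 genes, in control libraries (horizontal) and in libraries labelled IL34-KO (vertical), with a line at equal differences. Most genes lie along the line, and Eya1 lies above it, with 1.99 in the libraries labelled IL34-KO and 1.14 in controls.

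All 5 D1 markers rose again, with a median of 1.15 in the libraries labelled IL34-KO and 1.23 in controls, and all 5 D2 markers fell (-2.21 and -2.42). The respiratory chain list rose in 71 of 80 cases (median 0.63 and 0.55). Of the 6 further direct-pathway genes 3 rose past the threshold. Among all genes tested in these libraries, 26.4% rose and 26.9% fell. Eya1 missed the threshold there despite a larger difference (1.99 ± 0.78, adjusted p = 0.0583), with 81.5, 104 and 119.9 RPKM in the pull-downs and 34.4, 52.7, 3.34 and 50.9 RPKM in unbound RNA, where the third library stood far below the other 3. Without that library the difference was 1.13 ± 0.19 (adjusted p = 0.00273), and without unbound library 2 or 4 it passed as well (0.0469 and 0.0446). Sfxn1 missed it too (1.10 ± 0.77, adjusted p = 0.258), with 119, 608 and 101 RPKM in the pull-downs and 61.2, 335, 48.9 and 64.5 RPKM in unbound RNA. The second library of each fraction was several times the others for Sfxn1, and the same 2 were highest for Drd1a, at 88.9, 184 and 101 RPKM in the pull-downs and 35.02, 83.7, 58.4 and 45.5 RPKM in unbound RNA. Without unbound library 2 Sfxn1 passed (1.73 ± 0.60, adjusted p = 0.0481), and without pull-down library 2 Drd1a did not (0.83 ± 0.30, adjusted p = 0.0526). Whether those libraries share an animal cannot be told either.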

How the data were processed

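The text uses the RPKM tables as the authors deposited them, 1 column per sample; per the submitters' processing notes reads passed through bcl2fastq, TopHat2 2.1.0 and HTSeq 0.6.0, with mm9 named among the builds and DESeq2 among the tools, and how gene reads became RPKM is not given in the sources used here. Libraries were made with NuGEN Ovation V2 and read once on a Illumina NextSeq instrument, per the labels' protocols. Of the table with the microglial lines, 10 columns, those of CNO-injected mice, were not used. Whole reads could be recovered from the RPKM steps for 100% of 18102 genes (tolerance 0.0001 reads), which gave the depths; RPKM, not these reads, was the basis of the tests. Genes named mt- were left out (13), genes with a mean of at least 1 RPKM were kept, each library was divided by its median ratio to the geometric mean over libraries, and log2(RPKM + 1) was tested with limma 3.58.1 (R 4.3.3, trended variance, Benjamini-Hochberg over all genes, threshold 0.05) over the 8 control libraries, over the 7 labelled IL34-KO, and over all 15 for the interaction. Values were also simulated from a normal spread on the log2 scale, with 200 of 10233 genes changed and as many raised as lowered. There 97% of genes changed 2-fold were recovered in the control comparison and 5.8% of calls were genes left unchanged. The real contrast called far more genes, with rises and falls of unequal size, so these rates need not hold for it. Whether reads were counted by strand is not given, so overlapping and antisense genes cannot be told apart. No 2 libraries of a group agreed within sampling noise. Named genes are the 15 largest rises and falls past the threshold whose fractions did not overlap and whose higher fraction averaged at least 5 RPKM, the members of every list with the smallest p (at most 4), and all members of 5 lists; others are marked as chosen later, and some named by this rule are not reported here. The members and lists were chosen with earlier results of these data known. Positions are from GENCODE on GRCm38, not the build named for the reads; promoter sequences are from RefSeq on GRCm38.p6. Alternatives tried were the pseudocount, the filter, the scaling, keeping mt- genes, array weights, a shared fit, leaving out each library and, chosen after seeing the data, limma voom on the recovered reads.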

Additional observations from a re-analysis of the deposited data

Results flagged for a closer look

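In 18 of 351 groups of 4 libraries looked at (5.13%), 1 library stood far from the other 3; chance flags about 1 in 20, so the flags are given as values in rescaled RPKM and no cause was tested.

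Sfxn1 was flagged in both sets. Its pull-down library 4 of the controls had 101 RPKM, while the other 3 had 188 to 201, and its unbound library 2 labelled IL34-KO had 335 RPKM, while the other 3 had 48.9 to 64.5. In control pull-down library 4 Nt5e was low at 0.717 RPKM (others 1.09 to 1.16) and Slc4a4 was high at 34.6 (others 28.0 to 28.6). Control pull-down library 1 was low for 2 genes of spiny projection neurons, with Ppp1r1b at 323 RPKM (others 449 to 467) and Pde1b at 136 (others 185 to 194), and library 2 was high for Rpl10 at 57.6 (others 45.4 to 47.0).

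Among the control unbound libraries, library 4 was low for the myelin gene Ermn at 61.5 RPKM (others 105 to 113). It was high for Il34 at 5.08 (others 3.50 to 3.75), Npy at 49.8 (others 41.7 to 43.0) and Tmem158 at 44.4 (others 32.7 to 34.5). Library 1 was low for Ptpn5 at 44.2 (others 54.7 to 56.5) and Cox4nb at 16.4 (others 16.7 to 16.8).

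Unbound library 1 labelled IL34-KO was flagged for 5 genes. The cortical factor Fezf2 was high in it at 9.12 RPKM (others 1.33 to 2.27), as was Khdrbs3 at 24.9 (others 12.5 to 14.3). Pde1b was low at 81.0 (others 107 to 112), Pde2a at 42.7 (others 54.5 to 55.4) and Accn4 at 2.84 (others 3.87 to 4.03).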

How the results depend on the processing

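The control counts of 2474 higher and 2657 lower genes stayed within 1.5 times under every alternative except 2. With a mean of at least 5 RPKM required, 1515 were higher and 1537 lower of 6179 tested in control, and 1654 and 1665 of 6067 in the libraries labelled IL34-KO, where fewer genes were tested. Without rescaling 8722 were higher and 691 lower in control, and 8685 and 588 in the libraries labelled IL34-KO, since the scale itself then differed between the fractions. Leaving out 1 library at a time gave 2046 to 2747 higher and 2310 to 2911 lower genes in control, and 2201 to 2747 higher and 2338 to 2795 lower genes in the libraries labelled IL34-KO. The interaction called 0 genes in limma under every alternative, with 59 to 451 at an unadjusted p under 0.05.

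Of the genes named with values, 14 changed sign, all without rescaling: Bach2 to 0.26, Cox4nb to 0.75, Eif4ebp2 to 0.065, Epha4 to 0.87, Grm3 to 0.20, Id4 to 0.65, Oprm1 to 0.32, Rpl10 to 0.43, Rps24 to 0.53, Sgk1 to 0.23, Slc4a4 to 0.70, Syt1 to 0.65, Tgfb2 to 0.18 and Zfp521 to 0.72. Eya1 and Sfxn1 were lost only in the fit over all 15 libraries (adjusted p = 0.0922 and 0.202), and Calb1, Gda, Junb, Oprm1 and Sgk1 when single libraries were left out and under other settings too. Bach2 and Tgfb2 also missed the threshold with quantile normalization, Syt1 with no filter on low values, and Adcy2, Cacng7, Gabra3 and Vamp1 without rescaling. Cox4nb passed as lower with a mean of at least 5 RPKM required, with scaling to the total of genes and in the fit over all 15 libraries. The cause was not tested. No paired analysis was possible because the columns of the D1 table carry none of the replicate numbers of the sample titles. The number of libraries, 4 against 4, limits what could be called, and low genes are compressed by the pseudocount.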

Other observations

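Vascular and ependymal RNA was scarce in both fractions. Of 7 mural cell markers 2 reached the mean of 1 RPKM and both fell. Of 6 ependymal markers 2 did and both fell, against 25.8% of all genes. Rgs5, a pericyte marker, had 1.55, 1.15, 1.22 and 0.919 RPKM in the pull-downs and 11.1, 9.04, 9.71 and 9.47 RPKM in unbound RNA (-2.30 ± 0.10).

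Of the 691 genes at or under 0.5 of the unbound level in the D1 pull-down that also had a value in the microglial lines, 430 were below 0 in the microglial pull-down, and 160 were at least 2-fold higher there. Values below 0 were common in the microglial pull-down at large. The median of all 10132 genes with both values was -0.11, and 1407 of 2434 genes that rose in the D1 pull-down were below 0. The share of all genes at least 2-fold higher there was not counted.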
